A study of Mus musculus with 15 samples.

Results

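Among the chromatin regions that were open in cultured mouse eosinophils, 2939 of 27402 carried the active mark H3K27ac, lacked the promoter mark H3K4me3, and were acetylated in another myeloid cell type too. Eosinophils, granulocytes with a role in allergy and in defence against helminths, had been grown from unselected bone marrow progenitors of BALB/c mice over 14 days, first in 100 ng/mL of stem cell factor plus 100 ng/mL of FLT3 ligand (days 0 to 3) and then in 10 ng/mL of interleukin 5 (days 4 to 14). All groups shared this culture. Open chromatin (ATAC-seq), H3K27ac, H3K4me3 and H3K4me1 were mapped in 2 BALB/c libraries each and PU.1 in 1 BALB/c library. A second strain, titled C57 and given as BL6/57 in the strain label, contributed 2 ATAC and 2 H3K27ac libraries. Peak lists re-analysed from other studies cover H3K27ac and PU.1 in neutrophils, in macrophages and in immature granulocytes, with 1 library per list and the cell type known only from the name of the list.

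The regions were selected on measured values in 4 steps. Peaks of both BALB/c ATAC libraries were joined where they shared at least 1 bp, and a region was kept when each library had a peak in it. The region had to overlap an H3K27ac region called in both BALB/c libraries, and it could not overlap an H3K4me3 region called in both. At least 1 peak of the neutrophil or the macrophage H3K27ac list had to lie in it. Of 3697 acetylated open regions without H3K4me3, 2939 met the last condition and 758 had no peak of either list. These 758 regions, called the neither-list regions here, serve as the comparison. A further 11531 acetylated open regions carried H3K4me3.

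H3K27ac marks active enhancers and promoters, H3K4me3 marks promoters, and H3K4me1 is found at enhancers. Acetylated open regions without H3K4me3 therefore have the marks by which active enhancers are commonly mapped. PU.1, the ETS-family factor encoded by Spi1, is needed for the development of myeloid cells. It binds many enhancers in macrophages and granulocytes together with factors specific to each lineage.

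Eosinophil genes dominated the marker lists in the RNA of these cultures, but genes typical of neutrophils and macrophages were present as well. The 2 RNA libraries held 40306679 and 30465490 counts. All 12 eosinophil markers reached 1 CPM (counts scaled to library size) or more in both libraries and summed to 13961 and 14273 CPM, among them Prg2, a granule protein, at 3910 and 4195 CPM. All 14 neutrophil markers also passed that level, with sums of 2366 and 2062 CPM. Of 14 macrophage markers 13 passed, with sums of 7107 and 8600 CPM, and Marco was at 0 in both libraries. Of 8 mast cell and basophil markers 3 passed (80.1 and 48.0 CPM in sum, Mcpt4 at 0), as did 4 of 6 lymphoid markers (31.7 and 35.7 CPM) and 6 of 7 stromal markers (2477 and 661 CPM). Eosinophils express several of the macrophage genes themselves, so the lists do not measure cell numbers, and in bulk RNA fewer cells of a type and less RNA per cell cannot be told apart. The part that other myeloid cells of the cultures have in the shared regions was not tested. Spi1 stood at 411 and 436 CPM.

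With the lists as deposited, most shared regions were acetylated in both outside lists. The neutrophil and the macrophage list both had a peak in 1821 of the 2939 shared regions, the macrophage list alone in 683 and the neutrophil list alone in 435. A neutrophil peak was thus present in 76.8% of the shared regions and a macrophage peak in 85.2%, where 51.4% and 68.6% of all 27402 open regions had one. These shares follow from the selection and are given as a description. The sizes and order of the classes depended on list length: the neutrophil list held 21838 peaks over 24.1 Mb and the macrophage list 59401 peaks over 53.5 Mb. With both lists held to their 21838 strongest peaks, 1131 regions were shared with the neutrophil list only, 276 with the macrophage list only and 1125 with both, so that the neutrophil-only class and the class in both lists were about equal. The number of shared regions also depended on weak peaks. It was 157 when a −log10 q of at least 5 was asked in the BALB/c ATAC, H3K27ac and H3K4me3 lists. Since weak H3K4me3 peaks no longer excluded a region there, the 157 need not all be among the 2939.

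Few regions stood at the edge of the last condition, the overlap with an outside peak. The smallest overlap with an outside peak was 3 bp, and in 11 shared regions outside peaks covered under 10% of the region. In 2773 regions (94.4%) they covered at least 50%, and 2225 were covered over their whole length. The strongest outside peak had a −log10 q under 2 in 41 regions, with the lowest at 1.16. On the other side of that condition, 39 of the 758 neither-list regions had an outside peak within 500 bp, the nearest 2 bp away. Their median distance to one was 11034 bp.

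PU.1 peaks of eosinophils were present in most shared regions, and more often than where neither outside list had a peak. The single eosinophil PU.1 library had a peak in 2730 of 2939 shared regions, a share of 92.9% (95% Wilson interval 91.9 to 93.8). It had one in 86.8% (84.2 to 89.0) of the neither-list regions, 77.7% of all open regions and 91.8% of acetylated open regions with H3K4me3. Shared regions exceeded neither-list regions by 6.08 percentage points (95% Newcombe interval 3.65 to 8.82, adjusted p = 5.18e-07, two-sided Fisher's exact test with Benjamini-Hochberg adjustment over 12 comparisons of regions). Regions are not replicates of a condition, and neither these tests nor these intervals hold the spread between libraries. The difference was 9.84 points without BALB/c ATAC replicate 1, and 4.12 points within strata of region width and ATAC score. With all PU.1 lists held to 35266 peaks it was 13.1 points, between 82.6% and 69.5%. Asking for a −log10 q of at least 5 in the BALB/c ATAC, H3K27ac and H3K4me3 lists, with PU.1 unfiltered, gave too few neither-list regions (7) for the call (10.5 points, adjusted p = 0.458, Fisher's exact test).

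Within the shared regions, eosinophil PU.1 was most frequent where both outside lists were acetylated. It had a peak in 94.3% of the 1821 regions acetylated in both lists (93.1 to 95.3), in 91.9% of the 683 macrophage-only regions (89.7 to 93.8) and in 88.5% of the 435 neutrophil-only regions (85.2 to 91.2). Regions in both lists exceeded those in a single list by 3.68 points (1.72 to 5.77, adjusted p = 3.14e-04, Fisher's exact test), and by 9.33 points with PU.1 lists of equal length (86.2% against 76.8%). Within strata of width and ATAC score that difference was 1.92 points and did not pass (Mantel-Haenszel test, adjusted p = 0.0655, where Fisher's exact test without strata gave 3.14e-04). Regions in both lists were wider (median 595 bp) than those in the macrophage list alone (519 bp) or the neutrophil list alone (547 bp). Neutrophil-only regions were 3.44 points below macrophage-only regions, with an interval from −7.24 to 0.0685 and an adjusted p of 0.0704 by Fisher's exact test. The adjusted p passed in 8 of 17 alternatives (Fisher's exact test, or Mantel-Haenszel within strata), among them those without BALB/c ATAC replicate 1 (−4.41 points, adjusted p = 0.0275), with PU.1 lists of equal length (−7.23 points, adjusted p = 0.00764) and without BALB/c ATAC replicate 2 (−4.46 points, adjusted p = 0.0224).

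**Figure D1:**
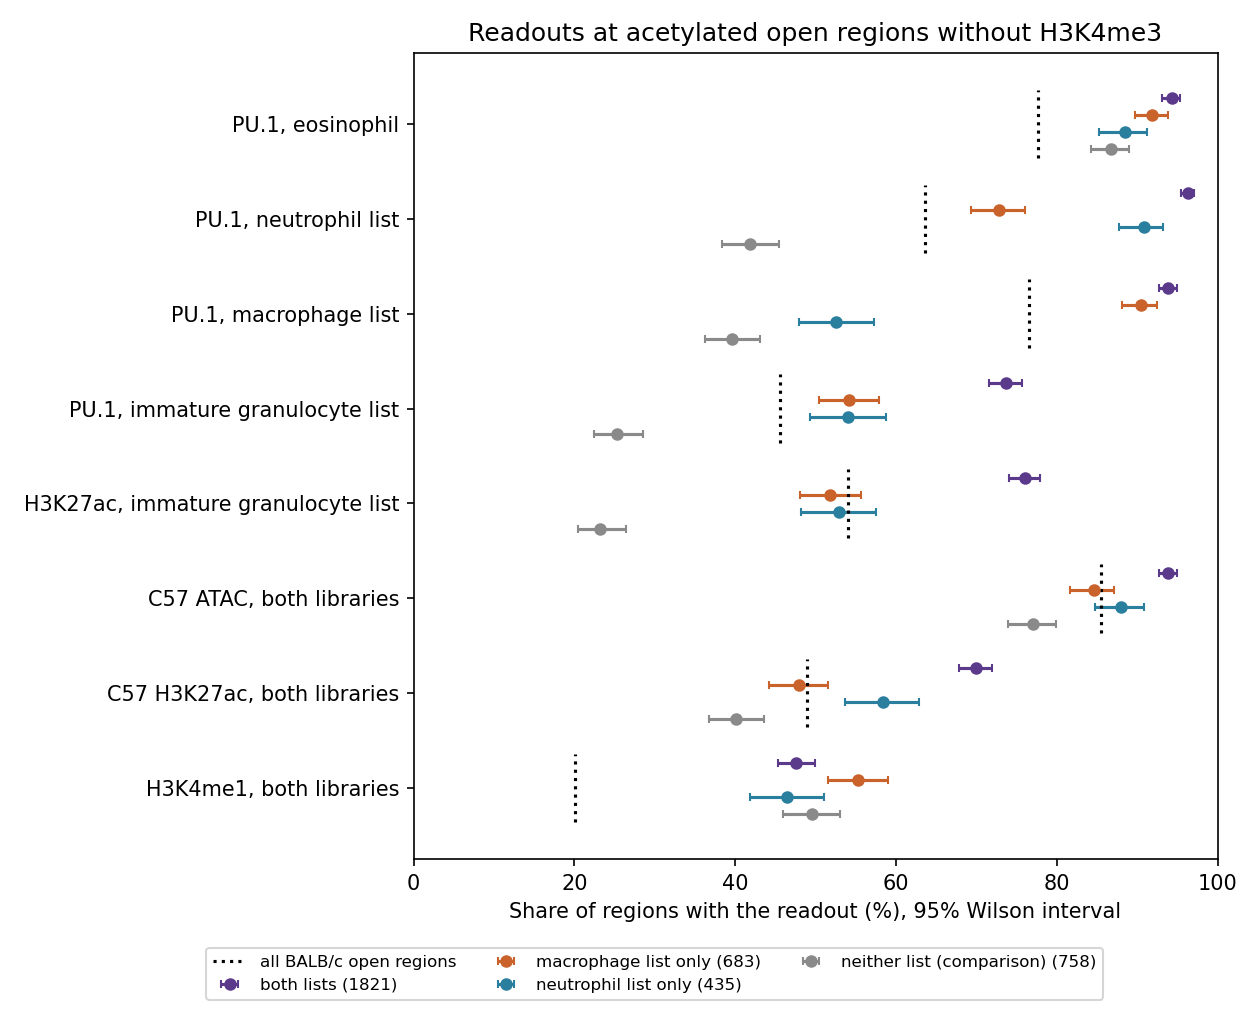
Share of regions with each readout (x axis, percent, 95% Wilson intervals) for acetylated open regions without H3K4me3, split by H3K27ac in the outside lists: both (1821), macrophage only (683), neutrophil only (435) and neither (758, the comparison). Dotted lines give all 27402 open regions. PU.1 in eosinophils lies between 86.8% and 94.3% in every class. Of the single-list classes, PU.1 of the neutrophil and macrophage lists is more frequent where the same cell type was acetylated, and both single-list classes lie above the neither class.

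Between the single-list classes, the outside PU.1 lists, which the selection did not use, followed the acetylation of their own cell type. A neutrophil PU.1 peak lay in 90.8% of the neutrophil-only regions (87.7 to 93.2) and in 72.8% of the macrophage-only regions (69.3 to 76.0), a difference of 18 points (13.6 to 22.2, adjusted p = 6.25e-14, Fisher's exact test). A macrophage PU.1 peak lay in 90.5% of the macrophage-only regions (88.1 to 92.5) and in 52.6% of the neutrophil-only regions (47.9 to 57.3), a difference of 37.8 points (32.6 to 42.9, adjusted p = 6.97e-46, Fisher's exact test). In regions acetylated in both lists the shares were 96.3% and 93.9%. Over all 2939 shared regions they were 90.0% for the neutrophil PU.1 list and 87.0% for the macrophage PU.1 list, beside 63.6% and 76.5% of all open regions. In acetylated open regions with H3K4me3 they were 71.5% and 88.6%. In the neither-list regions they were 41.8% and 39.6%, below the share in all open regions for both lists. Regions acetylated only in the other cell type also stood above these values, at 72.8% for neutrophil PU.1 and 52.6% for macrophage PU.1.

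Both differences kept their sign when lists were filtered or held to equal length. With the 4 PU.1 lists held to 35266 peaks each, the neutrophil PU.1 difference was 26.4 points and the macrophage one 42.0 points. With both outside H3K27ac lists held to equal length they were 14.6 and 19.4 points, the latter between 93.8% and 74.4%. Neutrophil PU.1 differed by 10.5 points when outside H3K27ac peaks needed a −log10 q of at least 5. Only the −log10 q minimum of 5 in the BALB/c ATAC, H3K27ac and H3K4me3 lists, which gave 11 neutrophil-only and 21 macrophage-only regions, ended both calls. The macrophage PU.1 list holds 135034 peaks and has the layout of broad peaks, and the neutrophil PU.1 list holds 100426 in the layout of narrow peaks, so shares of the 2 lists cannot be set against each other.

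In immature granulocytes the single-list classes had like shares of PU.1. Their PU.1 list had a peak in 54.0% of the neutrophil-only regions (49.3 to 58.7) and in 54.2% of the macrophage-only regions (50.4 to 57.9). The difference of −0.150 points had an interval from −6.13 to 5.81 (adjusted p = 1.00, Fisher's exact test), so a difference of up to 6.13 points remains possible. The share was 73.7% in regions acetylated in both lists, 66.2% over all shared regions, 45.6% over all open regions and 25.3% in the neither-list regions. H3K27ac of immature granulocytes, another list outside the selection, gave a like order. Its peaks lay in 76.0% of the regions in both lists, 51.8% of the macrophage-only, 52.9% of the neutrophil-only and 23.2% of the neither-list regions. Shared regions as a whole (67.0%, beside 54.0% of all open regions) exceeded the neither-list regions by 43.7 points (40.2 to 47.1, adjusted p = 8.39e-105, Fisher's exact test). Acetylated open regions with H3K4me3 had a higher share, 86.5%.

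PU.1 in all 4 cell types was the most frequent pattern. Every PU.1 list had a peak in 1814 of 2939 shared regions (61.7%), beside 40.3% of all open regions and 50.4% of acetylated open regions with H3K4me3. Another 547 (18.6%, beside 12.3% of the neither-list regions) had one in the eosinophil, neutrophil and macrophage lists without the immature granulocyte list. The next patterns were eosinophil and neutrophil alone with 112 regions (3.81%, beside 8.58%) and eosinophil and macrophage alone with 89 (3.03%, beside 7.12%). For the 547, 112 and 89 regions no share over all open regions was computed. The share with PU.1 in all 4 lists was 72.4% in regions acetylated in both lists, 48.0% in macrophage-only, 38.4% in neutrophil-only and 16.9% in neither-list regions.

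Between the single-list classes, PU.1 patterns that separate neutrophils from macrophages differed in frequency. PU.1 in eosinophils and neutrophils but not macrophages was found in 145 of 435 neutrophil-only regions (33.3%) and in 6 of 683 macrophage-only regions (0.878%), with 36 regions in both lists (1.98%) and 84 neither-list regions (11.1%). PU.1 in eosinophils and macrophages but not neutrophils was found in 111 of the macrophage-only regions (16.3%) and in 2 of the neutrophil-only regions (0.460%), with 13 in both lists (0.714%) and 73 neither-list regions (9.63%). For neither of these patterns was a share over all open regions computed. PU.1 was also called without acetylation of the same cell type: 229 neutrophil-only regions (52.6%, beside 76.5% of all open regions) had a macrophage PU.1 peak. In all, 715 of the 1118 regions acetylated in a single list (64.0%) had PU.1 in both the neutrophil and the macrophage list, beside 59.2% of all open regions. A PU.1 peak in eosinophils and in no other list was seen in 53 shared regions (1.80%), in 261 neither-list regions (34.4%) and in 5.63% of all open regions.

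**Figure D2:**
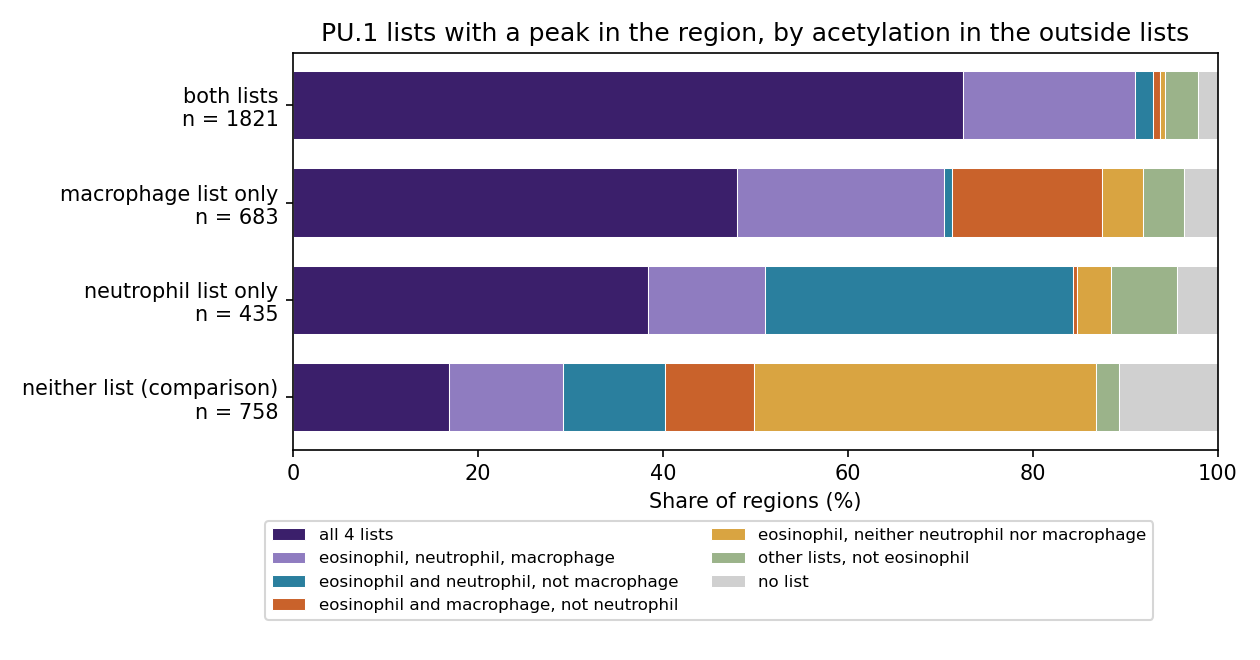
Stacked shares of regions (x axis, percent) by the set of PU.1 lists with a peak in them, 1 bar for each class of outside acetylation. PU.1 in all 4 lists covers 72.4% of regions acetylated in both lists and 16.9% of the neither-list regions, and the bands for neutrophil without macrophage PU.1 and macrophage without neutrophil PU.1 are widest where only that cell type was acetylated (33.3% and 16.3%).

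Peak strength also differed between the classes. The −log10 q of a peak is the authors' own value and was compared within a list only, over regions that have a peak. In the eosinophil PU.1 list its median was 26.7 in regions acetylated in both lists (quartiles 14.8 and 39.7), 20.6 in macrophage-only, 17.9 in neutrophil-only and 16.9 in neither-list regions. In the neutrophil PU.1 list the medians were 167, 53.1, 100 and 31.7 in the same order, so that neutrophil-only regions stood above macrophage-only regions. The macrophage PU.1 list showed the opposite order of these classes, with medians of 42.0, 32.5, 11.3 and 11.4. The immature granulocyte PU.1 list gave 17.7 in both single-list classes, 24.3 in both lists and 12.5 in the neither-list regions. The quartile ranges of neighbouring classes overlapped in each list, and no test was made.

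**Figure D3:**
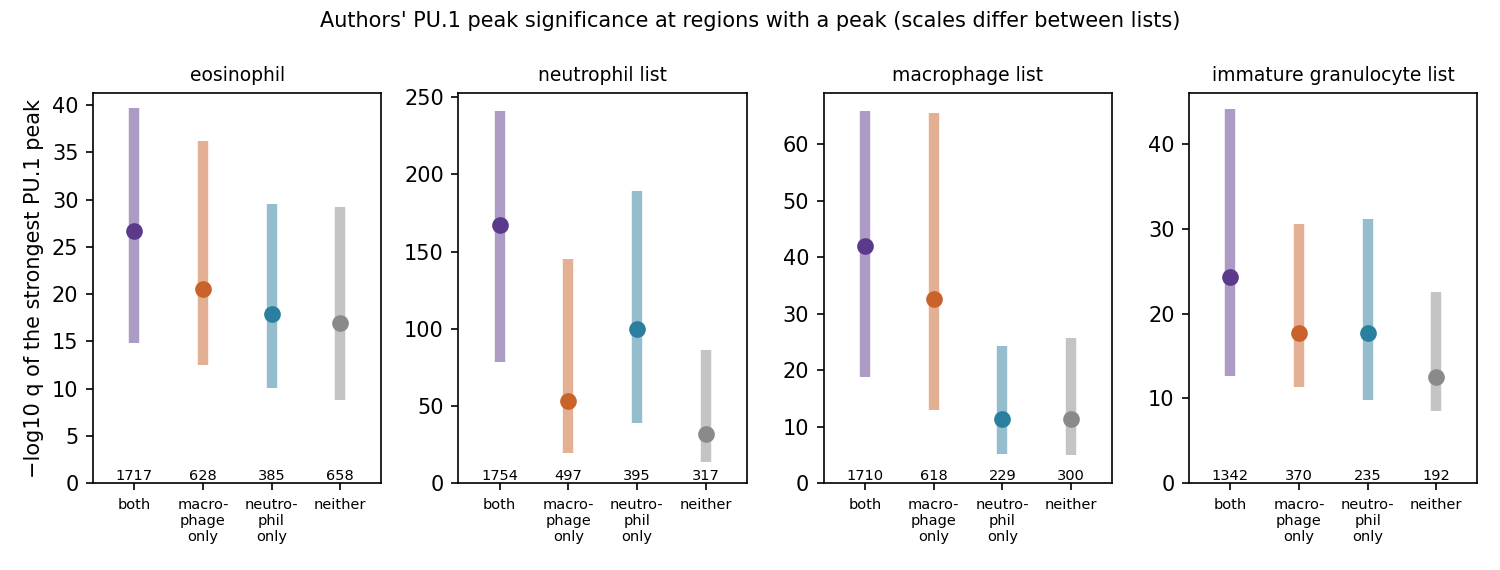
Median (point) and quartiles (bar) of the −log10 q of the strongest PU.1 peak in a region, for 4 PU.1 lists with separate scales and 4 classes of outside acetylation; numbers at the foot count regions with a peak. The neutrophil list has its second highest median (100) in neutrophil-only regions and the macrophage list (32.5) in macrophage-only regions.

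PU.1 summits of different cell types were compared by their distance, as a description. The summit of the strongest eosinophil PU.1 peak lay a median of 108 bp from the centre of its shared region. In 2548 regions with PU.1 in eosinophils and neutrophils, the strongest summits were a median of 68 bp apart, and 1056 pairs (41.4%) lay within 50 bp. Against immature granulocytes the median was 60 bp over 1929 regions. Neither-list regions gave the same medians, 68 bp over 305 regions (42.3% within 50 bp) and 60 bp over 185. All open regions gave 76 bp (37.6% within 50 bp) and 65 bp, and both summits of a pair lie at the same open region, which bounds their distance. A single eosinophil PU.1 peak was the rule, with 2625 regions holding 1 peak, 101 holding 2 and 4 holding 3 or more. The 2826 eosinophil PU.1 peaks in shared regions overlapped a neutrophil PU.1 peak directly in 92.1% of cases, a macrophage one in 89.9% and an immature granulocyte one in 69.2%. For the 681 peaks in neither-list regions these shares were 45.8%, 44.3% and 27.9%. Direct overlap was not computed for all open regions.

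The 209 shared regions without an eosinophil PU.1 peak had fewer PU.1 peaks in the other cell types too. A neutrophil PU.1 peak lay in 98 of them (46.9%, 40.2 to 53.7), a macrophage one in 70 (33.5%) and an immature granulocyte one in 18 (8.61%), beside 93.3%, 91.1% and 70.7% of the 2730 regions with eosinophil PU.1. They were also called less often as H3K4me1 (32.5% against 50.5%) and as open in C57 cells (76.1% against 92.0%). No counterpart of these shares over all open regions was computed. Of the 209, 127 had PU.1 in some other list. Without eosinophil PU.1, the neither-list regions had it in 19 of 100 and all open regions in 2597 of 6104. The 127 are 4.32% of all shared regions, whether or not they had eosinophil PU.1, against 2.51% of all neither-list regions and 9.48% of all open regions. A further 82 had none in any of the 4 lists, which is 2.79% of all shared regions. That share was 10.7% in the neither-list regions, 4.56% in acetylated open regions with H3K4me3 and 12.8% in all open regions. These values describe classes formed from the PU.1 calls and were not tested.

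H3K4me1 was called at like shares in shared and neither-list regions. It was found in both BALB/c libraries in 49.2% of the shared regions (47.4 to 51.0) and in 49.5% of the neither-list regions (45.9 to 53.0), more than in all open regions (20.1%). The difference was −0.238 points with an interval from −4.22 to 3.74 (adjusted p = 1.00, Fisher's exact test). Each library alone gave like values for shared regions, 53.7% in replicate 1 and 52.7% in replicate 2. When marks had to cover at least 50% of a region the difference became −4.65 points and passed (39.7% against 44.3%, adjusted p = 0.0225, Fisher's exact test).

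Among shared regions, H3K4me1 was called in 55.3% of the macrophage-only (51.6 to 59.0), 46.4% of the neutrophil-only (41.8 to 51.1) and 47.6% of the regions in both lists (45.3 to 49.9). Regions in both lists stood 4.27 points below those in a single list (−7.97 to −0.544, adjusted p = 0.0334, Fisher's exact test), a call close to the threshold. By the same exact test it was lost without BALB/c ATAC replicate 1 (−3.27 points, adjusted p = 0.0815), H3K27ac replicate 1 (−3.34 points, 0.0657), H3K27ac replicate 2 (−3.48 points, 0.0808) or H3K4me3 replicate 1 (−4.13 points, 0.0579). Without BALB/c H3K4me1 replicate 2 the difference was −8.53 points, and with H3K4me1 called in either library −7.52 points (adjusted p = 5.70e-05, Fisher's exact test). Within strata of H3K27ac fold enrichment and ATAC score, added after the values were seen, it was 0.714 points by Mantel-Haenszel (adjusted p = 0.760), and with no H3K4me3 peak within 2000 bp it was −0.861 points (adjusted p = 0.787, Fisher's exact test).

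H3K4me1 was called more often where the H3K27ac fold enrichment was higher. The shared regions were ranked by the fold enrichment of their strongest H3K27ac peak, the authors' value, averaged over the BALB/c libraries with a peak there. H3K4me1 was called in 18.8% of the lowest quartile (fold 1.76 to 2.86), then 48.2%, 61.9% and 68.2% of the highest quartile (3.62 to 10.8). C57 H3K27ac ran the other way, from 73.7% in the lowest quartile to 54.6% in the highest, and C57 ATAC went from 94.7% to 86.0%. PU.1 in eosinophils differed little, between 91.7% and 94.0%. The H3K27ac regions themselves narrowed over the quartiles, from a median of 1215 bp to 938 bp. The part of region width in these trends was not tested, and no p is given because the same H3K27ac lists chose the regions.

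**Figure D4:**
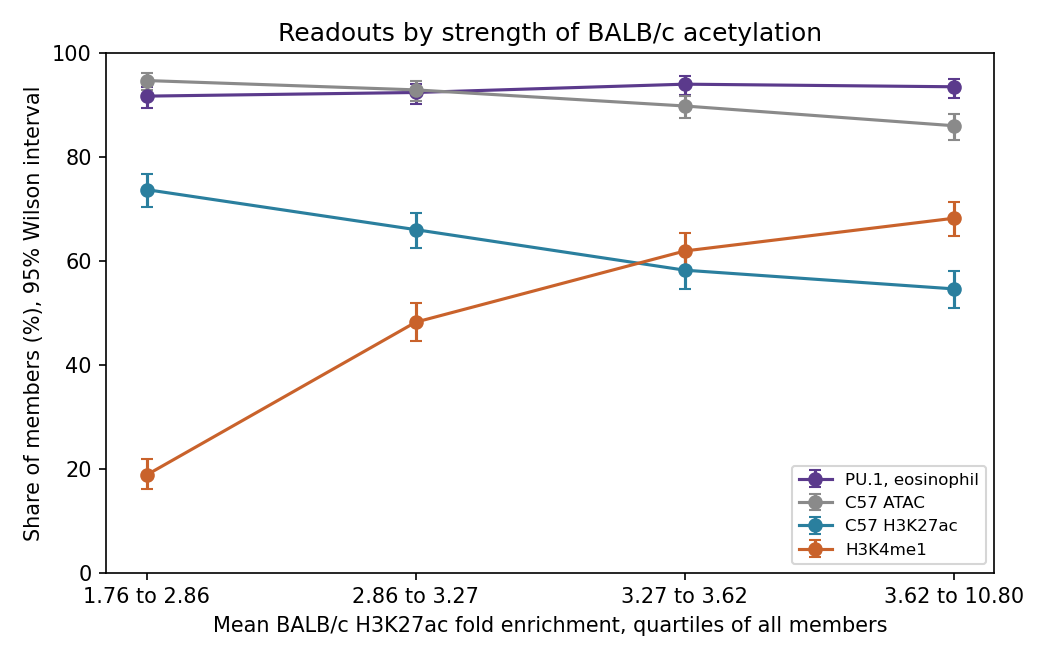
Share of shared regions (y axis, percent, 95% Wilson intervals) with eosinophil PU.1, C57 ATAC, C57 H3K27ac and H3K4me1 in quartiles of mean BALB/c H3K27ac fold enrichment (x axis, range of each quartile). H3K4me1 climbs from 18.8% to 68.2%, C57 H3K27ac declines from 73.7% to 54.6%, and PU.1 stays between 91.7% and 94.0%.

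Shared regions were open and acetylated in C57 eosinophils more often than neither-list regions. An ATAC region called in both C57 libraries overlapped 2670 of the 2939 shared regions (90.8%, 89.8 to 91.8). It overlapped 77.0% of the neither-list regions (73.9 to 79.9), 85.5% of all open regions and 96.1% of acetylated open regions with H3K4me3. The difference between shared and neither-list regions was 13.8 points (10.7 to 17.1, adjusted p = 6.85e-22, Fisher's exact test). With ATAC called in either C57 library it was 8.25 points, between 96.8% and 88.5%. Each C57 ATAC library alone had a peak in 93.7% and 93.9% of the shared regions. By class the share was 93.8% in regions of both lists, 88.0% in neutrophil-only and 84.6% in macrophage-only regions, so that the single-list classes lay close to the 85.5% of all open regions.

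For H3K27ac the C57 libraries differed from each other. Replicate 1 had a peak in 58.1% of the shared regions and replicate 2 in 91.5%, from lists of 14992 and 27527 peaks. Called in both, H3K27ac was found in 63.1% of the shared regions (61.4 to 64.8), 40.1% of the neither-list regions (36.7 to 43.6) and 48.9% of all open regions. Acetylated open regions with H3K4me3 had a higher share, 88.3%. The difference between shared and neither-list regions was 23.0 points (19.1 to 26.9, adjusted p = 2.95e-29, Fisher's exact test), and 13.2 points without C57 H3K27ac replicate 1, when the shares were 91.5% and 78.2%. Within the shared regions it was called in 70.0% of those in both lists, 58.4% of the neutrophil-only and 47.9% of the macrophage-only regions. Regions in both lists exceeded those in a single list by 18 points (14.4 to 21.6, adjusted p = 4.89e-22, Fisher's exact test), and by 8.45 points without C57 H3K27ac replicate 1. In 181 shared regions (6.16%) neither an ATAC nor an H3K27ac region was called in both C57 libraries, against 18.7% of the neither-list regions, 12.8% of all open regions and 1.98% of acetylated open regions with H3K4me3. As BALB/c and C57 peak libraries were compared by presence only, these shares do not measure a difference between strains.

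Shared regions lay some way from H3K4me3 but were not all distal. The median distance to the nearest H3K4me3 region called in both libraries was 15060 bp (quartiles 6064 and 35835). By class the median was 13481 bp in both lists, 17043 bp in neutrophil-only and 18950 bp in macrophage-only regions, and 23348 bp in the neither-list regions. H3K4me3 lay within 2000 bp of 288 shared regions (9.80%), beside 5.54% of the neither-list regions and 58.0% of all open regions. An H3K4me3 peak of at least 1 library overlapped 494 (16.8%), beside 12.8% and 58.0%. By the selection none of the 494 overlapped a region called in both libraries, while all open regions include such regions. Distance from annotated gene starts was not analysed here, so the regions are called by their marks and not as distal.

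**Figure D5:**
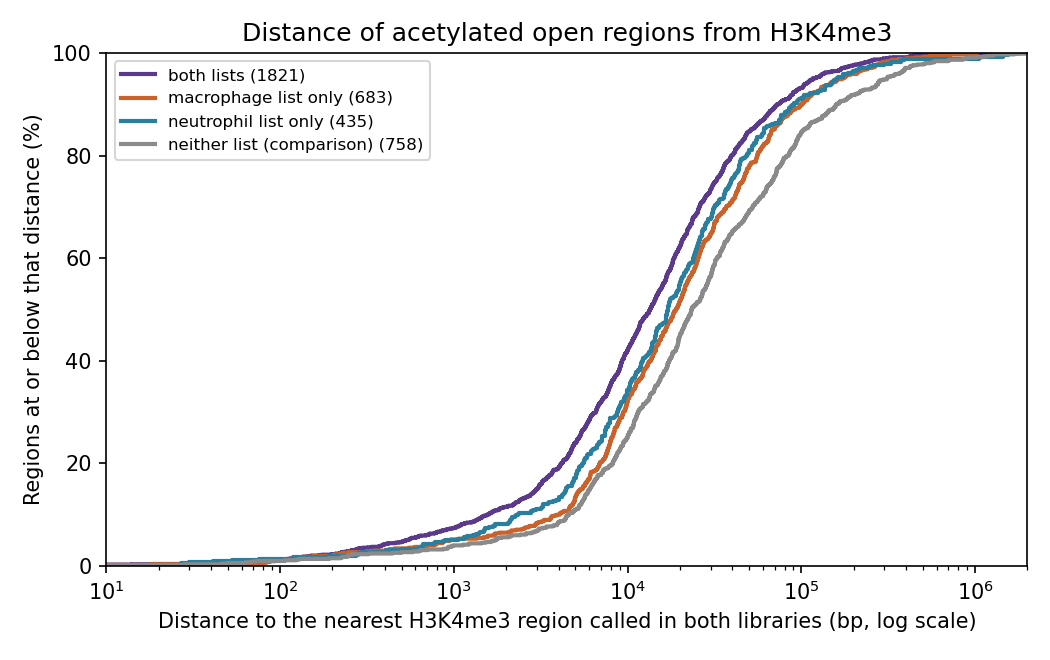
Cumulative share of regions (y axis, percent) by distance to the nearest H3K4me3 region called in both BALB/c libraries (x axis, bp, log scale), for the 4 classes of outside acetylation. Regions acetylated in both lists lie closest (median 13481 bp) and neither-list regions farthest (median 23348 bp).

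The shared regions were narrower than acetylated open regions with H3K4me3, with a median width of 564 bp against 853 bp, and slightly wider than neither-list regions (505 bp). Their median ATAC score, the authors' value, was 41.0 and 40.0 in the 2 BALB/c libraries, against 34.0 in both libraries for neither-list regions and 83.0 and 88.0 for acetylated regions with H3K4me3. Their H3K27ac fold enrichment had a median of 3.30 in replicate 1 and 3.22 in replicate 2, a little below the 3.39 and 3.34 of the neither-list regions. Most had no other shared region close by: 2841 of 2918 H3K27ac regions that held a shared region held 1, and 2461 of the 2939 shared regions had no other shared region within 10000 bp. Open regions outside the selection were not counted as neighbours, and no such share was computed for neither-list or all open regions. The X chromosome held 41 of them (1.40%), against 2.16% of all open regions.

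The regions with the highest H3K27ac fold enrichment are given next in mm9 coordinates. They need not be typical of their classes, since 2 of 3 macrophage-only regions lacked macrophage PU.1 and 2 of 3 neutrophil-only regions lacked eosinophil PU.1. The highest mean H3K27ac fold among regions in both lists was at chr8:27079969-27080486, a region of 518 bp. Its ATAC score was 150 in replicate 1 and 235 in replicate 2, and its H3K27ac fold 9.07 and 12.4. PU.1 was called there in all 4 lists, with a −log10 q of 99.0 in eosinophils, 141 in neutrophils, 76.3 in macrophages and 33.7 in immature granulocytes. H3K4me1, C57 ATAC and C57 H3K27ac were all called, the last at fold 3.69 and 5.42, and H3K4me3 lay 5982 bp away. The next 2 regions of this class, chr5:144175624-144176237 and chr3:115407213-115407841, had PU.1 in eosinophils, neutrophils and macrophages but not in immature granulocytes, and were open and acetylated in C57 cells.

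The macrophage-only regions with the highest H3K27ac fold lacked neutrophil PU.1. At chr19:61000496-61000776 the ATAC score was 415 and 418 and the H3K27ac fold 10.7 and 8.98. Eosinophil PU.1 had a fold of 17.9 and a −log10 q of 50.3, and no other PU.1 list had a peak, although the macrophage H3K27ac list did (−log10 q of 26.1). The region at chr5:149119177-149119434 likewise had PU.1 in eosinophils only (−log10 q of 49.9), with ATAC scores of 88.0 and 127 and no C57 ATAC call. The third, chr16:50030520-50030985, had PU.1 in eosinophils (33.2), macrophages (11.6) and immature granulocytes (4.17). In all 3 regions H3K4me1 and C57 H3K27ac were called.

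Among neutrophil-only regions, 2 of the 3 with the highest H3K27ac fold stood apart in ATAC between the libraries. At chr17:4626121-4626626 the ATAC score was 462 in replicate 1 and 48.0 in replicate 2, while H3K27ac was even (8.89 and 9.01). At chr17:56339356-56339592 it was 225 and 42.0. Both had PU.1 in neutrophils and macrophages but not in eosinophils, and neither was open or acetylated in both C57 libraries or marked by H3K4me1. The region at chr1:95186299-95186553 had ATAC scores of 34.0 and 57.0, PU.1 in eosinophils (16.5) and neutrophils (28.0) only, H3K4me1, and C57 H3K27ac at fold 6.47 and 6.67.

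Of the 82 shared regions without PU.1 in any list, those with the highest ATAC scores were chr10:67745818-67746189 (87.0 and 79.0), chr9:45983332-45983926 (85.0 and 70.0) and chr10:111575615-111576047 (76.0 and 75.0). All 3 were open in both C57 libraries and none had H3K4me1. The region at chr10:67745818-67746189 lay 2858 bp from H3K4me3, the chr9 region 54109 bp, and that at chr10:111575615-111576047 134770 bp.

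Joining shared regions at most 10000 bp apart gave 2684 clusters, most of them a single region. Of these, 195 held 2 regions and 28 held 3 or more, with 4 as the largest number. At chr2:167579010-167601362, 4 regions over 22353 bp were all acetylated in both outside lists, each PU.1 list had a peak in 3 of them, and all were open in C57 cells. The 4 regions at chr7:147157352-147171281 were also in both lists, with eosinophil PU.1 in 3 and no H3K4me1. At chr17:84515631-84526881, 2 of 4 regions had eosinophil PU.1 and all 4 were open and acetylated in C57 cells.

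Few shared regions carried every mark and factor examined. H3K27ac was present in the neutrophil, macrophage and immature granulocyte lists in 1384 of the 2939 shared regions (47.1%, beside 38.7% of all open regions), and 1039 (35.4%, beside 23.9%) also had PU.1 in all 4 lists. Of these 1039, 753 were open and acetylated in both libraries of C57 cells, which is 25.6% of the shared regions, beside 20.0% of all open regions. In addition H3K4me1 was called in 370 (12.6% of the shared regions, beside 3.21% of all open regions). Acetylated open regions with H3K4me3 gave 70.9%, 41.8%, 39.6% and 4.01% in the same order, so that only the share with H3K4me1 was lower there. These counts are a description of overlapping choices, with no test.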

How the data were processed

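Per the labels' protocols, ATAC libraries followed Omni-ATAC, ChIP libraries were made by ChIPmentation and RNA libraries with a stranded mRNA kit. Bowtie2 2.3.4.1, STAR 2.5, Trim Galore 0.4.2, FastQC 0.11.7, HOMER, featureCounts, bedtools 2.27.0, Picard 1.89 and the mm9 build are listed in the submitters' processing notes without their roles. The peak caller is not given in the sources used here. The authors deposited unnormalized read counts per gene for RNA, and per library a peak list with a score, a fold enrichment (a ratio) and a −log10 q per peak. The depth behind each peak list is unknown, and the labels do not say that libraries came from separate cultures or animals.

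Peaks sharing at least 1 bp were joined, and shares of regions were compared by two-sided Fisher's exact tests, with Wilson and Newcombe intervals, which cover counting error only. Mantel-Haenszel differences used 25 strata. Overlap, distance and strata code was tested on simulated data. Outside lists entered by position and −log10 q, and 2 RNA columns of no sample here were not used. Python 3.11.15, numpy 2.4.6, pandas 2.3.3, scipy 1.17.1 and matplotlib 3.10.9 were used. The regions, lists and tests were chosen with earlier results of these data known.

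Named are, per class, the 3 regions with the highest mean H3K27ac fold among those with a peak of each library at the open region (2705 of 2939 over all classes). Over all classes together, the 3 regions without PU.1 and with the highest ATAC score are named, and 3 of 4 clusters with the most regions, ties taken in genome order. Regions on chromosome 18 are not named. CPM is counts divided by the library total.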

Additional observations from a re-analysis of the deposited data

Results flagged for a closer look

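The contrast between neutrophil-only and macrophage-only shared regions had opposite signs in the PU.1 lists of the 2 cell types. The share with neutrophil PU.1 was 18 points higher in neutrophil-only regions, and macrophage PU.1 gave −37.8 points for the same contrast. Each list is 1 library, and the difference between the 2 effects was not tested.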

How the results depend on the processing

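Of 259 values recomputed under 24 alternative settings, 229 kept their verdict. A verdict was kept when the adjusted p stayed on its side of the threshold (counts: stayed within 1.5 times). The sign also had to hold where either value passed, but could change where neither did. A −log10 q minimum of 5 was set for the BALB/c ATAC, H3K27ac and H3K4me3 lists, while PU.1 and H3K4me1 were not filtered. It gave 157 shared regions, 125 in both outside lists, 21 macrophage-only and 11 neutrophil-only. Weak H3K4me3 peaks no longer excluded a region there, so these regions need not all be among the shared regions of the main setting. These were too few for 4 calls: PU.1 in eosinophils (10.5 points) and C57 ATAC (11.1) against neither-list regions, and neutrophil PU.1 (20.3) and macrophage PU.1 (35.1) between single-list classes. PU.1 in eosinophils, both lists minus one, was −4.80 points there. Outside H3K27ac lists of equal length gave 1131 neutrophil-only, 276 macrophage-only and 1125 regions in both. H3K4me1 against neither-list regions passed (−4.65 points) when marks had to cover 50% of a region. PU.1 in eosinophils, neutrophil-only minus macrophage-only, passed with that setting (−5.84), outside peaks of −log10 q at least 5 (−6.81), PU.1 lists of equal length (−7.23), PU.1 peaks of −log10 q at least 5 (−4.63), strata of width and ATAC score (−3.98) and strata of H3K27ac fold and ATAC score (−3.91), and ran from −4.46 to −2.55 with single libraries left out. PU.1 in eosinophils, both minus one, did not pass within strata of width and ATAC score (1.92). H3K4me1, both minus one, did not pass with outside lists of equal length (−4.19), H3K4me3 and H3K27ac called in either library (−2.30) or no H3K4me3 peak within 2000 bp (−0.861). It was 0.714 within strata of H3K27ac fold and ATAC score, and ran from −8.53 to −3.27 with single libraries left out. Apart from the −log10 q minimum in BALB/c, where few regions were left, the cause of these changes was not tested. The strata of H3K27ac fold and leaving out chrM and unplaced sequence were chosen after seeing the data. Unknown sequencing depth limits what a missing peak means, and each outside list and the PU.1 list is 1 library. No paired analysis was possible because every result comes from the overlap of peak lists, with no fit over samples.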
